A study of Homo sapiens with 12 samples.

Results

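The axon guidance ligands and receptors are the ephrins with their EPH receptors, the semaphorins with plexins and neuropilins, the SLIT proteins with ROBO receptors, and the netrins with DCC and UNC5 receptors. They were taken by gene symbol: the prefixes EPHA, EPHB, EFNA, EFNB, SEMA with a number, PLXN, ROBO, SLIT1 to SLIT3 and UNC5, together with NRP1, NRP2, NTN1, NTN3, NTN4 and DCC. After 8 antisense genes were left out, 69 of 33458 genes with a symbol met this rule. Of these, 4 met it by name alone (UNC50, a Golgi membrane protein, UNC5CL, the pseudogene ROBO2P1 and the intronic transcript SLIT2-IT1), which left 65 guidance genes. Of the 65, 39 passed the signal filter, a log2 signal averaging 6.5 or more in the 6 doxycycline-free (Dox(-)) arrays, as did 15194 of all genes. Each gene is given by its brightest probe set, and a difference of 1 on the log2 scale is a doubling of the signal.

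Axon guidance proteins steer growing neurites and migrating cells by attraction or repulsion at short or long range. EPH receptors are receptor tyrosine kinases that bind ephrins on the surface of a neighbouring cell. Secreted class 3 semaphorins bind a neuropilin that signals through a plexin, whereas membrane-bound semaphorins mostly bind plexins directly. SLIT proteins repel cells through ROBO receptors, and netrins act through DCC and UNC5. The same families are used in vessel growth and in many tumors, and Ewing sarcoma is a bone and soft tissue cancer of children and young adults driven by a fusion of EWSR1 with an ETS gene.

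Expression was measured on 12 Clariom D arrays in SK-N-MC and RDES, both established Ewing sarcoma cell lines. Each line had been transduced with a lentiviral, Dox-inducible hairpin and selected with puromycin, giving derivative lines in which the hairpin was non-targeting (shCtrl), matched the coding sequence of PRC1 (shCDS) or matched the PRC1 untranslated region (shUTR). PRC1 encodes a microtubule-bundling protein of cytokinesis. Every derivative line was grown in the absence (Dox(-)) or presence (Dox(+)) of 1 µg/ml doxycycline over 60 h, and each of the 12 conditions had 1 array. The shCDS and shUTR derivative lines are called shPRC1 lines. By design, the derivative lines of a cell line differ in the hairpin. The hairpin stems of the shPRC1 lines, as the study's oligo list gives them, both target PRC1 on chromosome 15:
shCDS: caggaacattcaaaggcattt
shUTR: gcctgacttctctaccacata

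The labels and the silencing were checked first. With Dox, PRC1 went from 15.56 to 11.55 under shCDS and from 15.59 to 12.66 under shUTR in SK-N-MC cells. In RDES cells it went from 14.50 to 10.54 and from 14.75 to 13.28. It lay between 15.59 and 15.71 in the 4 shCtrl arrays. STAG2, which encodes a cohesin subunit, ran from 13.78 to 14.01 on RDES shPRC1 arrays and from 5.84 to 6.06 on SK-N-MC ones, but the arrays labelled RDES shCtrl gave 6.10 and 6.01. BGN, the gene of the matrix proteoglycan biglycan, gave the same placing, since it ran from 4.42 to 4.78 on RDES shPRC1 arrays while those labelled RDES shCtrl gave 15.59 and 15.67. In STAG2 and BGN the control pair carrying the RDES label thus resembled SK-N-MC rather than RDES. The Ewing sarcoma markers were not all placed alike in that pair. LIPI was at 14.62 and 14.50, near the mean of 14.56 on RDES shPRC1 arrays (12.88 on SK-N-MC ones). CD99 was at 14.45 and 14.41, near the mean of 14.17 on SK-N-MC shPRC1 arrays (16.72 on RDES ones). STAG2 at 9.15 and 9.32 in SK-N-MC shCtrl lay between the lines. MGST1, a microsomal glutathione transferase, was at 10.53 and 10.44 in the latter, against 15.80 to 16.38 in RDES shPRC1 and 5.96 to 7.97 in SK-N-MC shPRC1. The cell lines were for this reason compared over the 8 shPRC1 arrays, 4 per line. All 11 measured Ewing sarcoma markers passed the filter. NKX2-2, a target of the EWSR1-FLI1 fusion, spanned 9.07 to 10.25 in RDES but 6.72 to 7.53 in SK-N-MC, and CD99, the diagnostic surface protein, 16.63 to 16.84 and 13.99 to 14.40. Of these 11, 1 was higher in SK-N-MC and 8 in RDES. None of 5 haematopoietic markers passed the filter, and of 6 endothelial markers only VWF did, with no call between the lines. Of 6 epithelial markers KRT8 and KRT18 passed, both higher in SK-N-MC, by 1.08 and 3.57. Of 5 fibroblast markers 4 were higher in SK-N-MC, DCN by 3.95 and LUM by 2.21, and the mean of the list was 7.46 to 7.99 on the RDES arrays and higher on each SK-N-MC array, up to 9.63. Their part in the differences below was not tested.

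SK-N-MC and RDES differed widely in some guidance genes, while others, such as EFNA5, EFNB1 and EPHA7, were high in both lines. In bulk RNA, fewer expressing cells and less RNA per cell cannot be told apart. EPHA3, SEMA3C, SEMA5B and ROBO2 were far higher in SK-N-MC, and DCC, NTN4, EFNB2 and EPHA2 were far higher in RDES. Of the 39 guidance genes above the filter, 26 (66.7%) passed an adjusted p of 0.05 in limma, against 42.2% of all 15194 genes. Of these, 16 were higher in SK-N-MC and 10 in RDES. With a difference of at least 1 log2 as well, 13 (33.3%) were higher in SK-N-MC, against 11.7% of all genes, and 7 (17.9%) were higher in RDES, against 9.21%. The median absolute difference was 1.02 for the guidance genes and 0.45 for all genes. A difference of at least 4 log2 was seen for 6 guidance genes (15.4%) and for 1.29% of all genes. For 8 of the 39 genes, the mean of one line lay under 6.5, so that they passed the filter through the other arrays. The filter also included the arrays labelled RDES shCtrl, so it admitted genes high in SK-N-MC more readily than genes high in RDES. Without any filter 30 of 65 guidance genes (46.2%) passed, against 23.1% of all genes.

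**Figure D1:**
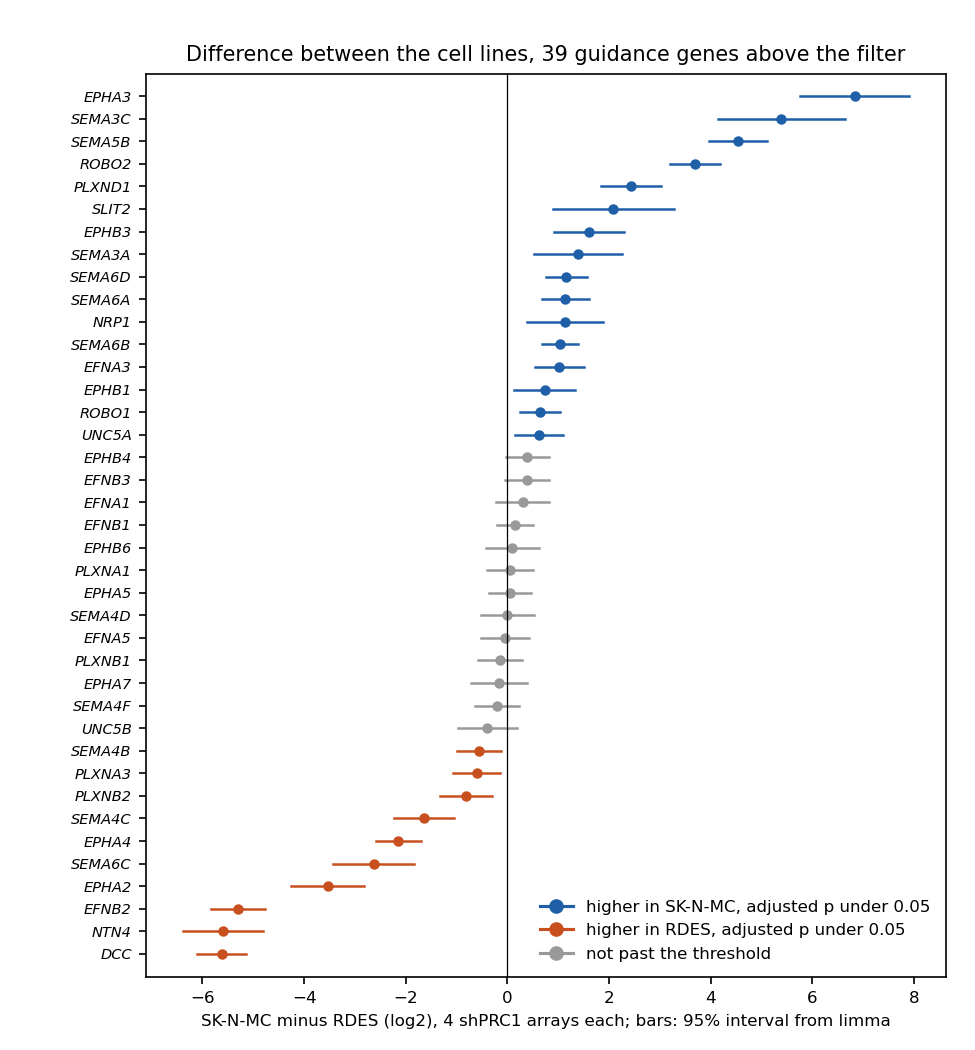
SK-N-MC minus RDES on the log2 scale (x axis) for the 39 guidance genes above the filter, with points for the limma estimate over 4 shPRC1 arrays per line and bars for its 95% interval. The estimates run from -5.62 for DCC to 6.83 for EPHA3, and 13 genes in the middle (grey) did not pass the adjusted p of 0.05.

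Among the EPHA receptors, 5 of 9 passed the filter, and 1 was higher in SK-N-MC and 2 in RDES. EPHA3, the receptor with high affinity for ephrin-A5, lies on chromosome 3 of GRCh38.p14 from 89107621 to 89482134. Its log2 signal was 15.90, 15.87, 15.87 and 15.63 in the SK-N-MC arrays (shCDS without and with Dox, then shUTR without and with Dox), and 9.30, 10.64, 8.08 and 7.92 in the RDES arrays in the same order, which is kept for the genes below. All 4 SK-N-MC arrays lay close together and far above RDES, while the RDES arrays were spread over more than 2 log2. The difference was 6.83 ± 0.49 (SE, n = 4 arrays per line, from 2 derivative lines), or 114-fold, with an adjusted p of 1.24e-06. With means per derivative line, 2 against 2, the adjusted p was 9.91e-05. The difference was 5.85 without RDES shUTR and 7.82 without RDES shCDS.

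EPHA4 and EPHA2 went the other way. EPHA2, a receptor of ephrin-A1, was at 7.39, 8.21, 7.26 and 6.46 in SK-N-MC, compared with 11.06, 11.16, 10.57 and 10.67 in RDES. EPHA4, which binds both ephrin classes, was at 12.62, 12.22, 12.37 and 12.53 in SK-N-MC, compared with 14.41, 14.28, 14.65 and 14.98 in RDES. In both genes the lines were well apart, with a difference of -3.53 ± 0.33 (SE) for EPHA2 and -2.15 ± 0.20 for EPHA4. Their adjusted p were 9.01e-06 and 1.01e-05. The other EPHA4 probe set differed by only -1.08, with overlapping arrays, and with the mean of both the difference was -1.61 (adjusted p 0.000267). EPHA5 and EPHA7 differed by 0.06 (95% interval -0.36 to 0.47) and -0.16 (-0.72 to 0.39), intervals that leave room for differences under 1 log2 only. EPHA1, EPHA6, EPHA8 and EPHA10 had means under 6.5 in both lines.

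All 4 EPHB receptors measured passed the filter, and 2 were higher in SK-N-MC. EPHB3 was at 11.02, 9.75, 10.76 and 10.13 in SK-N-MC, compared with 9.25, 9.27, 8.22 and 8.47 in RDES. Its lowest SK-N-MC value was still above its highest RDES value, and the difference was 1.61 ± 0.31 (adjusted p 0.00164). EPHB1 was higher by 0.73 at an adjusted p of 0.0486, close to the threshold, and passed in 7 of the 13 alternatives with the shPRC1 arrays that tested it. EPHB4, the venous receptor of ephrin-B2, differed by 0.40 (-0.03 to 0.82), and EPHB6, which lacks kinase activity, by 0.10 (-0.42 to 0.61).

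The ephrins differed mainly in EFNB2. This membrane-spanning ligand of EPHB and EPHA4 receptors lies on chromosome 13 from 106489745 to 106535662. Its signal was 6.39, 6.88, 6.04 and 5.86 in SK-N-MC, around or under the filter, and 11.26, 11.52, 11.61 and 11.99 in RDES. The difference of -5.30 ± 0.24 (39.4-fold, adjusted p 3.3e-08) was more than 10 times the standard deviation within either line (0.45 and 0.30). The other ephrin-B genes showed no such gap, with EFNB1 at 12.25 to 12.37 in SK-N-MC and 12.07 to 12.34 in RDES, a difference of 0.15 (-0.20 to 0.50). EFNA5, the ephrin-A5 gene, was at 12.02 to 12.69 in SK-N-MC and 12.12 to 12.82 in RDES, so that the lines overlapped fully (-0.05, -0.51 to 0.42) where its receptor EPHA3 did not. EFNA3 was the 1 ephrin higher in SK-N-MC, at 9.43, 9.03, 9.55 and 8.89 against 8.12, 7.93, 8.12 and 8.64. Its difference was 1.02 ± 0.22 (adjusted p 0.00316). EFNA2 and EFNA4 were below the filter.

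**Figure D2:**
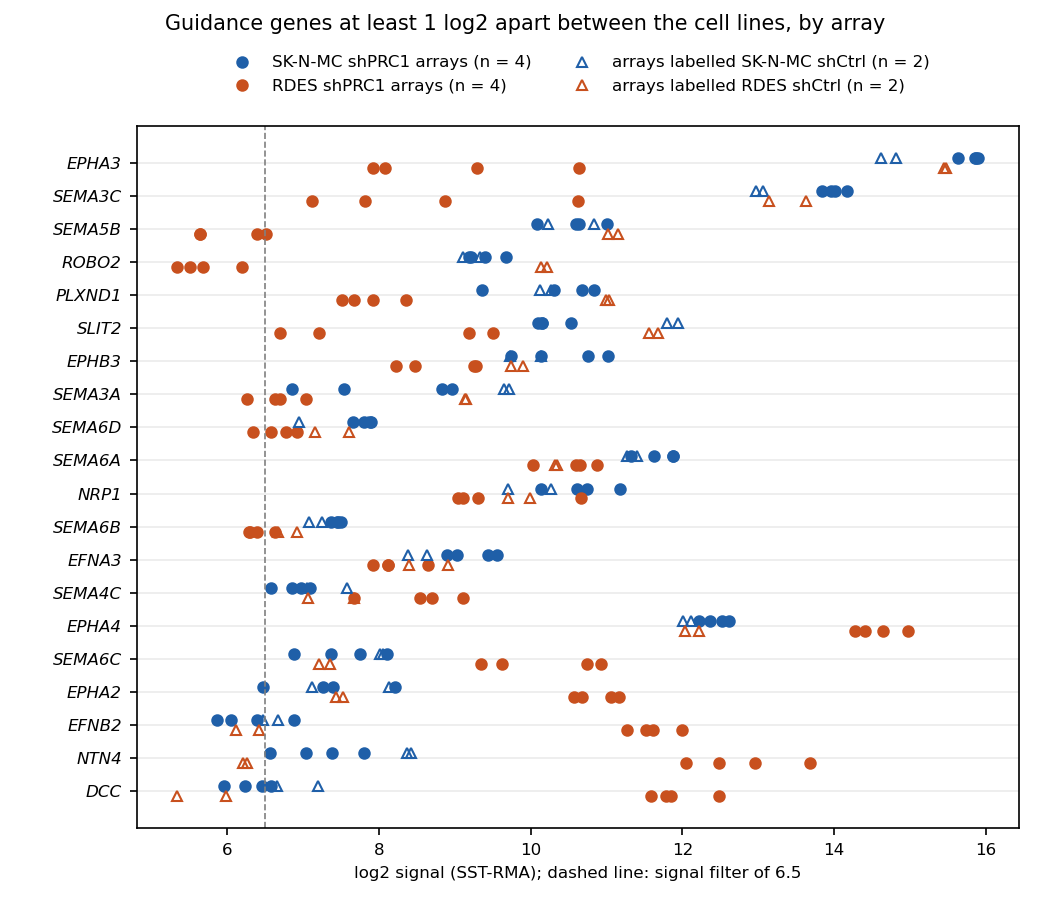
Log2 signal (x axis) on each array for the 20 guidance genes that passed the test with at least 1 log2 between the lines. Filled circles are the 4 shPRC1 arrays of each line and open triangles the shCtrl arrays as labelled, and the orange triangles, labelled RDES, sit with the blue SK-N-MC points in each of the genes that differ most, from EPHA3 at 15.47 and 15.45 to DCC at 5.33 and 5.98.

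Both secreted class 3 semaphorins above the filter, of 6 measured, were higher in SK-N-MC. SEMA3C, a ligand of neuropilins with plexin D1 that guides neural crest and heart outflow development, lies on chromosome 7 from 80742538 to 80922389. It was at 14.01, 13.95, 14.16 and 13.84 in SK-N-MC, compared with 8.87, 10.62, 7.12 and 7.81 in RDES. Like EPHA3, it was uniform in SK-N-MC and spread in RDES, with RDES shCDS above RDES shUTR. The difference was 5.39 ± 0.57 (41.8-fold, adjusted p 2.49e-05, or 0.000578 with means per derivative line, 2 against 2). It was 4.25 without RDES shUTR and 6.53 without RDES shCDS. SEMA3A, the repellent that collapses growth cones through NRP1, was at 8.83, 6.85, 8.96 and 7.54 in SK-N-MC, compared with 6.25, 6.70, 6.63 and 7.03 in RDES. The groups overlapped here, because the SK-N-MC shCDS array with Dox lay below an RDES array, and the difference of 1.39 ± 0.39 (adjusted p 0.0146) was not past the threshold without SK-N-MC shUTR (1.18, adjusted p 0.1). On the Dox(-) arrays alone it was 2.45. The other SEMA3A probe sets, under the filter level on every array, differed by 0.01 and 0.17. SEMA3D, SEMA3E, SEMA3F and SEMA3G were below the filter.

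Of 13 membrane-bound semaphorins 9 passed the filter, with 4 higher in SK-N-MC and 3 in RDES. SEMA5B, a transmembrane semaphorin with thrombospondin repeats, was at 10.63, 10.59, 11.01 and 10.08 in SK-N-MC, compared with 6.51, 6.39, 5.64 and 5.63 in RDES, where only 1 array reached 6.5. Its difference was 4.53 ± 0.26 (23.2-fold, adjusted p 1.99e-07). The class 6 semaphorins, which bind plexin A receptors, did not go the same way. SEMA6A at 11.63, 11.88, 11.88 and 11.32 in SK-N-MC against 10.88, 10.60, 10.65 and 10.02 in RDES was higher in SK-N-MC by 1.14 ± 0.21. SEMA6B at 7.44, 7.36, 7.50 and 7.45 against 6.63, 6.30, 6.28 and 6.39 was higher by 1.04 ± 0.16. SEMA6D at 7.80, 7.88, 7.89 and 7.65 against 6.33, 6.77, 6.91 and 6.57 was higher by 1.16 ± 0.18. Each of these had an adjusted p of at most 0.00111 and no overlap between the lines. SEMA6C was instead higher in RDES, at 8.11, 6.87, 7.75 and 7.37 in SK-N-MC against 9.62, 9.35, 10.74 and 10.93, a difference of -2.63 ± 0.36 (adjusted p 0.000168). Of the class 4 members, SEMA4C, a ligand of plexin B2, was at 6.97, 6.57, 6.86 and 7.08 in SK-N-MC, compared with 9.10, 7.67, 8.54 and 8.70 in RDES. The difference was -1.63 ± 0.27 (adjusted p 0.000582). SEMA4B was at -0.56 with overlapping arrays. Its call was lost without RDES shUTR or either SK-N-MC line, with means per derivative line, 2 against 2, and on the Dox(-) arrays alone. SEMA4D differed by 0.00 (-0.52 to 0.52) and SEMA4F by -0.20 (-0.63 to 0.23).

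Of 9 plexins, the semaphorin receptors, 5 passed the filter, with 1 higher in SK-N-MC and 2 in RDES. PLXND1, the plexin of SEMA3E that also works with neuropilins, was at 10.68, 10.31, 10.83 and 9.36 in SK-N-MC, compared with 8.35, 7.51, 7.66 and 7.92 in RDES. All SK-N-MC arrays were above all RDES arrays, and the difference was 2.43 ± 0.27 (5.39-fold, adjusted p 3.46e-05). PLXNA3 and PLXNB2 were higher in RDES, with differences of -0.61 and -0.81. The PLXNA3 call was lost without RDES shCDS or either SK-N-MC line, and on the Dox(-) arrays alone, where the difference was -0.27 (adjusted p 0.377). The PLXNB2 call was lost without SK-N-MC shUTR and on the Dox(-) arrays alone (adjusted p up to 0.0878). PLXNA1 and PLXNB1 differed by 0.06 (-0.39 to 0.51) and -0.14 (-0.58 to 0.29). NRP1, the neuropilin of SEMA3A, was at 10.61, 11.18, 10.75 and 10.13 in SK-N-MC, compared with 9.04, 10.66, 9.10 and 9.31 in RDES. The lines overlapped through the RDES shCDS array with Dox, and the difference of 1.14 ± 0.34 (adjusted p 0.0195) was 0.91 without SK-N-MC shCDS and 0.81 without RDES shUTR (adjusted p 0.125 and 0.0766). With the mean of both NRP1 probe sets it was 0.62 (adjusted p 0.106). NRP2 was below the filter.

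In the SLIT and ROBO system the receptors and the ligand above the filter were all higher in SK-N-MC. ROBO2 on chromosome 3 (75906675 to 77649964) was at 9.21, 9.39, 9.67 and 9.18 in SK-N-MC, compared with 5.68, 6.19, 5.51 and 5.33 in RDES, with every RDES array below the filter level. The difference was 3.68 ± 0.22 (12.9-fold, adjusted p 3.1e-07). ROBO1, which was at 10.52 to 11.02 in RDES, was higher in SK-N-MC by 0.64 ± 0.18 only, and this call was lost without either SK-N-MC shPRC1 line (adjusted p up to 0.0958). SLIT2, their secreted ligand, was at 10.09, 10.15, 10.53 and 10.15 in SK-N-MC, compared with 9.51, 9.19, 6.70 and 7.20 in RDES. SK-N-MC was uniform, while the RDES shCDS pair lay nearer to SK-N-MC than to the RDES shUTR pair. The difference was 2.08 ± 0.54 (adjusted p 0.00957, or 0.0386 with means per derivative line, 2 against 2). It thus depended on the derivative line, at 0.88 without RDES shUTR and 3.28 without RDES shCDS. Without SK-N-MC shUTR it was 1.97 with an adjusted p of 0.0754. The other SLIT2 probe set differed by 0.33, and with the mean of both the difference was 1.21 (adjusted p 0.0243). In the 4 shCtrl arrays SLIT2 was at 11.57 to 11.94, above all SK-N-MC shPRC1 arrays. ROBO3, ROBO4 and SLIT3 were below the filter.

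In the netrin system a receptor and a ligand, DCC and NTN4, were far higher in RDES. In the SK-N-MC shPRC1 arrays DCC lay around the filter level, and NTN4 lay above it on each array. DCC, the receptor that mediates attraction to netrin and that lies on chromosome 18 from 52340197 to 53535899, was at 5.95, 6.57, 6.45 and 6.24 in SK-N-MC. In RDES it was at 11.58, 12.48, 11.85 and 11.78. NTN4, a netrin that binds laminin in basement membranes, lies on chromosome 12 from 95657807 to 95791155. It was at 7.81, 7.03, 7.38 and 6.56 in SK-N-MC, compared with 12.95, 13.68, 12.05 and 12.49 in RDES. In both genes at least 4 log2 separated the nearest arrays of the lines. The differences were -5.62 ± 0.22 for DCC (49.3-fold, adjusted p 1.01e-08) and -5.60 ± 0.36 for NTN4 (48.4-fold, adjusted p 5.13e-07). UNC5A, a repulsive netrin receptor, was higher in SK-N-MC by 0.63. That call was lost without RDES shUTR or either SK-N-MC line, with means per derivative line, 2 against 2, and on the Dox(-) arrays alone. Over all alternatives with the shPRC1 arrays the UNC5A estimate went down to 0.41 and the adjusted p up to 0.137. UNC5B differed by -0.40 (-0.98 to 0.18). UNC5C, UNC5D, NTN1 and NTN3 were below the filter.

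Of the 26 guidance genes below the filter, 5 passed the adjusted p of 0.05 when all 33458 genes were tested. NRP2, at 5.65 to 6.13 in SK-N-MC, compared with at most 4.42 in RDES, had the widest gap of 1.67. SEMA7A (-0.95) and SEMA3F (-0.83) were higher in RDES, and NTN1 (0.58) and PLXNA4 (0.57) in SK-N-MC. SEMA3F, a ligand of NRP2, was the 1 gene below the filter with a mean of at least 6.5 in a line, 6.95 in RDES. Of the genes caught by name alone, ROBO2P1 was higher in SK-N-MC by 2.05 (adjusted p 1.95e-05), a value that is uncertain because a pseudogene can share probe sequence with its parent ROBO2. SLIT2-IT1 differed by 0.50 (-0.03 to 1.03) and UNC50 by -0.01 (-0.37 to 0.35), and UNC5CL was below the filter.

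The shCtrl arrays, which took no part in these tests, were then set on the scale from SK-N-MC (0) to RDES (1) for the 12 guidance genes that differed by at least 2 log2. All 4 shCtrl arrays lay nearer to SK-N-MC in each of the 12 genes. The median place was 0.07 in both SK-N-MC shCtrl arrays, and -0.12 and -0.08 in the arrays labelled RDES shCtrl. NTN4 was below every SK-N-MC array in the pair labelled RDES shCtrl, at 6.20 and 6.25, and above every SK-N-MC shPRC1 array in the SK-N-MC shCtrl pair, at 8.37 and 8.42. With all 12 arrays taken as labelled, none of the 39 guidance genes passed the adjusted p of 0.05, and EPHA3 differed by 4.31 (adjusted p 0.136).

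The RDES shPRC1 lines also differed from each other, as described here without a test because each condition had 1 array. Among the 13 guidance genes higher in SK-N-MC by at least 1 log2, 10 (76.9%) were higher in RDES shCDS than in RDES shUTR without Dox, where 68.8% of all 1783 such genes were. With Dox they were 9 (69.2%) against 48.6%, with a median of 0.76 against -0.03 over all such genes. SLIT2 had the widest gap without Dox, 9.51 against 6.70, followed by SEMA3C with 8.87 against 7.12 and EPHA3 with 9.30 against 8.08. These are the genes with a high spread in RDES above.

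Other genes of the same pathways were taken from 2 lists. Of 27 measured co-receptors and adhesion molecules 18 passed the filter, and 7 were higher in SK-N-MC and 5 in RDES (66.7%, against the 42.2% of all genes). NGFR, the neurotrophin receptor that also serves as a co-receptor in growth inhibition, was higher in SK-N-MC by 3.13, FLRT3, a binding partner of UNC5 and ROBO receptors, by 2.94, and the adhesion molecule CNTN1 by 2.49. NEO1, the DCC relative that binds netrins and RGM proteins, went with DCC and was higher in RDES, at 13.09 to 13.71 against 10.42 to 10.99 (-2.64). Of 48 cytoplasmic effectors 38 passed the filter, and 10 were higher in SK-N-MC and 12 in RDES (57.9%, against the same 42.2%). The widest differences above the filter were smaller than those of the ligands and receptors. They were found in the exchange factor FARP2 (-2.16), the actin-oxidizing MICAL3 (1.60), the exchange factor KALRN (1.58) and DPYSL4 of the CRMP family (-1.40), each with an adjusted p of at most 0.00223. TIAM1, an exchange factor for RAC1 that was noticed after its values were seen, was below the filter, whose arrays include those labelled RDES shCtrl, although its mean was 8.40 in RDES and 5.09 in SK-N-MC.

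PRC1 silencing was then examined as Dox(+) minus Dox(-) within each derivative line. When the shCtrl difference was subtracted, no guidance gene passed in limma, and neither did any of all 15194 genes (0%). PRC1 itself was among those that did not pass, although its Dox difference was -1.47 or lower in every shPRC1 line. For the shCtrl pairs the PRC1 difference was only -0.11 and -0.03. The test thus missed a large known change, and it cannot show that the guidance genes were unchanged. The lowest adjusted p among the 39 was 0.999. At an unadjusted p under 0.05 there were 2 guidance genes, SEMA4B and SEMA4C, and 400 of all genes (2.63%). For RDES the subtracted pair was the one that carries its label but resembled SK-N-MC in STAG2, BGN and the guidance genes that differed most. The difference was below 0 in all 4 shPRC1 lines for 2 guidance genes (5.13%), against 5.09% of all genes, and above 0 in all 4 for none, against 7.14%. The former were SEMA4F, whose SK-N-MC differences were -0.40 (shCDS) and -0.66 (shUTR) and whose RDES differences were -0.68 and -0.07, and SEMA5B, at -0.04, -0.92 and -0.12 in the same order and just under 0 in RDES shUTR. SEMA4F was at 0.98 and SEMA5B at 0.60 in SK-N-MC shCtrl, for SEMA4F a wider difference than in any shPRC1 line.

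**Figure D3:**
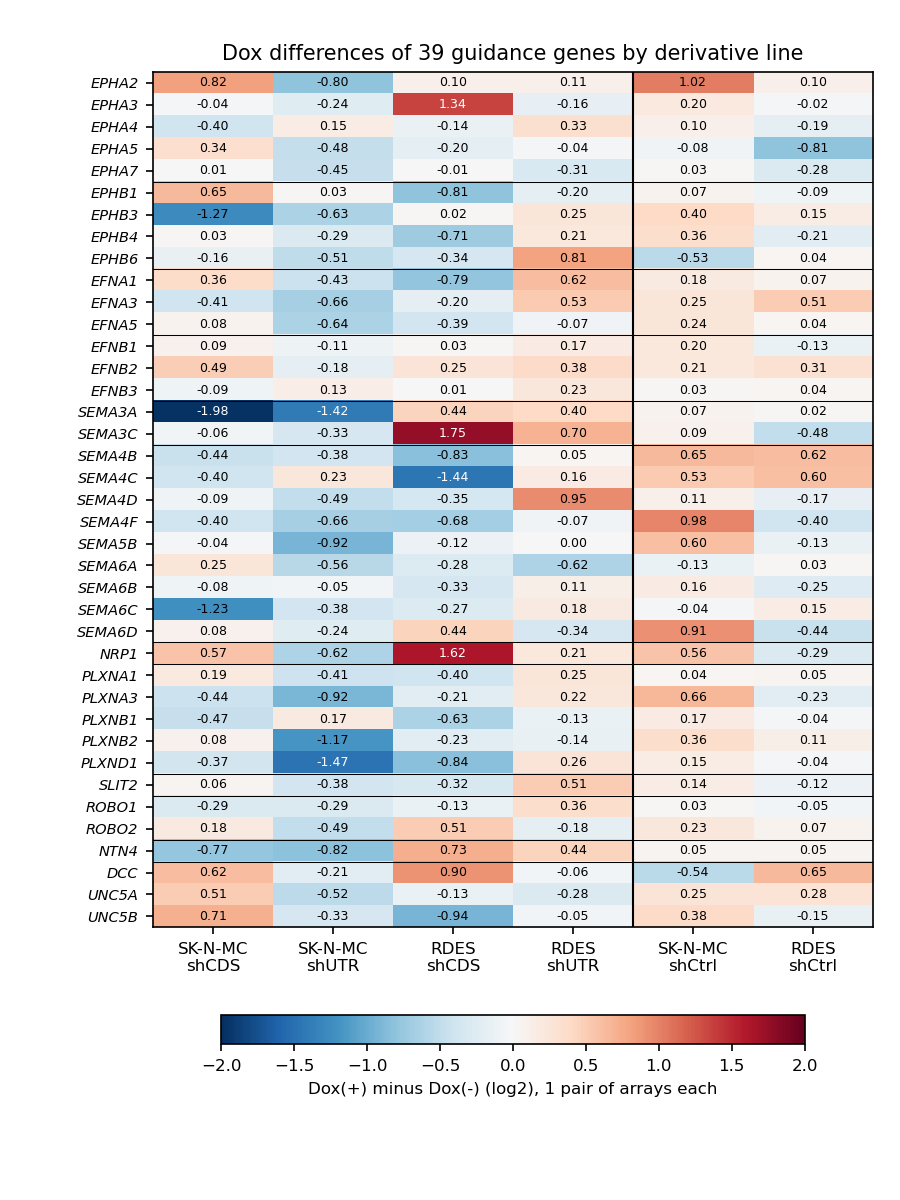
Dox(+) minus Dox(-) on the log2 scale (color and printed value) for the 39 guidance genes (rows, by family) in the 4 shPRC1 lines and, right of the line, the shCtrl pairs as labelled, with 1 pair of arrays per cell. The strongest colors stand in single lines, such as -1.98 and -1.42 for SEMA3A in SK-N-MC and 1.75 for SEMA3C in RDES shCDS.

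Single lines showed larger differences, which have no replicate. In SK-N-MC shCDS 3 guidance genes differed by at least 1 log2 (all genes 2.4%), EPHB3, SEMA3A and SEMA6C, each downward. In SK-N-MC shUTR there were also 3 (3.55%), PLXNB2, PLXND1 and SEMA3A, again downward. In RDES shCDS there were 4 (5.11%), EPHA3, NRP1 and SEMA3C upward and SEMA4C downward, and in RDES shUTR there were none (1.29%). EPHA2 was the only one in SK-N-MC shCtrl (1.03%), at 1.02, and the pair labelled RDES shCtrl had none (0.0987%). The median over the 39 genes was -0.43 in SK-N-MC shUTR, where 34 (87.2%) were below 0, against a median of -0.15 and 65.9% below 0 for all genes. It was -0.04 in SK-N-MC shCDS, -0.20 in RDES shCDS and 0.17 in RDES shUTR, against 0.07, -0.05 and 0.17 for all genes.

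SEMA3A was lower with Dox under both hairpins in SK-N-MC. Its signal went from 8.83 to 6.85 in SK-N-MC shCDS and from 8.96 to 7.54 in SK-N-MC shUTR, with 6.85 inside the range of the RDES arrays. It went from 6.25 to 6.70 and from 6.63 to 7.03 in RDES, and stayed at 9.64 and 9.72 in SK-N-MC shCtrl and at 9.13 and 9.15 in the pair labelled RDES shCtrl. The difference was therefore negative in both SK-N-MC shPRC1 lines and positive in both RDES lines. RDES and SK-N-MC differed in it by 2.12 ± 0.38 (SE, n = 2 derivative lines each), unadjusted p 7.63e-05 and adjusted p 0.232 in limma, so that it did not pass. The fibroblast markers DCN and LUM, which encode matrix proteoglycans, and PDGFRB, a growth factor receptor, were also lower with Dox in both SK-N-MC shPRC1 lines, by -1.06 and -0.69 for DCN, -1.70 and -1.17 for LUM and -0.61 and -0.43 for PDGFRB in shCDS and shUTR. Of the other fibroblast markers, the collagen genes COL1A1 and COL1A2 were at 0.56 and 0.62 and at -0.32 and 0.06. In SK-N-MC shCtrl DCN was at -0.54, LUM at -0.24 and PDGFRB at 0.24. The pair labelled RDES shCtrl had them at -0.57, -0.46 and -0.05. In RDES shCDS and shUTR DCN was at 0.95 and -1.60, and LUM at 0.75 and 0.28. Their part in the SEMA3A values was not tested.

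In the same comparison of RDES with SK-N-MC no guidance gene passed, and 0.0132% of all genes did. At an unadjusted p under 0.05 there were 4 of 39 guidance genes and 4.51% of all genes. NTN4 gave 0.73 and 0.44 in RDES (shCDS, then shUTR) against -0.77 and -0.82 for SK-N-MC, moving in opposite directions in the lines (1.38 ± 0.37, adjusted p 0.709). SEMA3C gave 1.75 and 0.70 against -0.06 and -0.33 (1.42 ± 0.42, adjusted p 0.863). EPHB3 gave 0.02 and 0.25 against -1.27 and -0.63 (1.08 ± 0.39, adjusted p 0.961).

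EPHA3 and NRP1 were higher with Dox by more than 1 log2 in RDES shCDS alone. EPHA3 was at 9.30 without and 10.64 with Dox there, a difference of 1.34, and at -0.16 in RDES shUTR and -0.04 and -0.24 in SK-N-MC. NRP1 went from 9.04 to 10.66 in RDES shCDS, from 9.10 to 9.31 in RDES shUTR, from 10.61 to 11.18 in SK-N-MC shCDS and from 10.75 to 10.13 in SK-N-MC shUTR. The shCtrl pairs were at 0.56 and -0.29 for NRP1, and those for EPHA3 at 0.20 and -0.02.

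**Figure D4:**
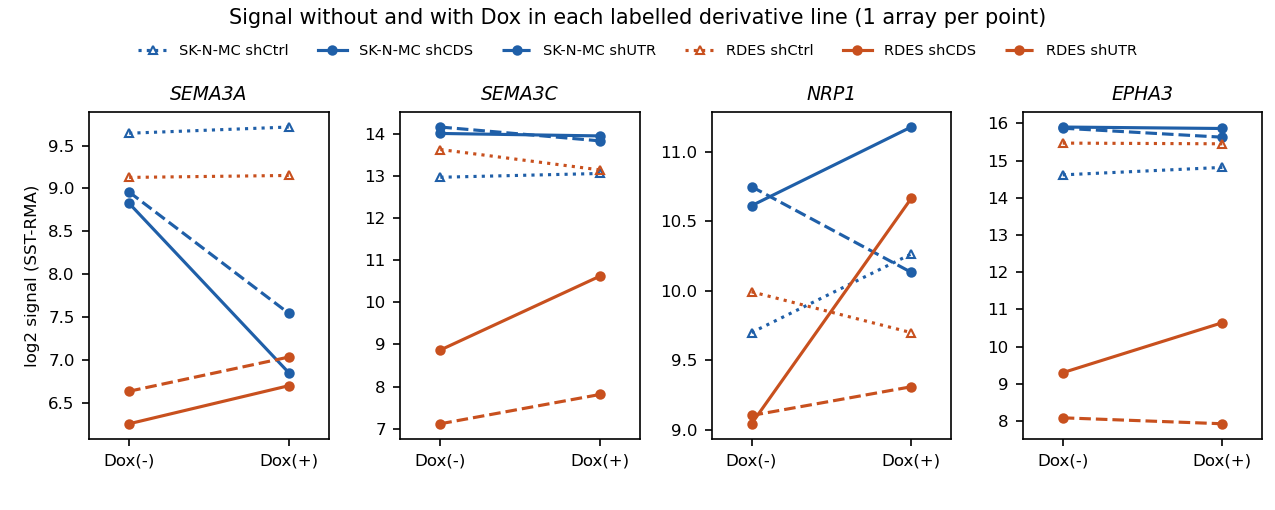
Log2 signal (y axis, a scale of its own in each panel) without and with Dox for SEMA3A, SEMA3C, NRP1 and EPHA3 in the 6 derivative lines as labelled, 1 array per point. SEMA3A goes from 8.83 and 8.96 to 6.85 and 7.54 in the SK-N-MC shPRC1 lines, and SEMA3C, NRP1 and EPHA3 are higher with Dox in RDES shCDS.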

How the data were processed

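The authors deposited log2 signals of probe sets made by SST-RMA (background correction, quantile normalization and summary of probes), so levels are comparable between arrays but not between genes. The methods name Transcriptome Analysis Console, the series description Expression Console, and the submitters' processing notes RMA and hg38. The 36176 of 135750 probe sets with exactly 1 symbol were used (1119 carry several and 98455 none), updated through RefSeq GRCh38.p14 identifiers and synonyms. Probe sets with several symbols, among them those of SEMA3B and SLIT1, were left out. All 69 members matched RefSeq.

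SK-N-MC against RDES was fitted with limma 3.58.1 (statmod 1.5.0, R 4.3.3, lmFit and eBayes) on the 8 shPRC1 arrays with Dox as a term and the derivative line as a random block (correlation 0.067, 5 residual degrees of freedom). PRC1 silencing was fitted on the Dox differences of the 6 derivative lines with terms for shPRC1 and cell line, and RDES was set against SK-N-MC over the 4 shPRC1 differences. Tests were two-sided, with Benjamini-Hochberg adjustment over 15194 genes at 0.05. They were tested on simulated data with equal noise for all genes, which the arrays here do not have. With 1 array per condition, p-values measure only the spread between derivative lines and their arrays, which may be technical. The block correlation was low and shared by all genes. It makes the SE too small where derivative lines differ, as for EPHA3, SEMA3C and SLIT2 in RDES. Precision is limited by the number of arrays.

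Array values are given for EPHA3, for members at least 1 log2 apart (at most 12 per direction), for those with 1 sign in all 4 Dox differences, and for up to 4 genes of each pathway list. EFNA3 and the further Dox examples were chosen after their values were seen. Members, lists and tests were chosen with earlier results of these data known. The alternatives were other filters, probe set rules, scalings, replicate units, sample sets and controls, and leaving out each derivative line. In the silencing fit, an shCtrl line was left out together with the shPRC1 lines of its cell line.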

Additional observations from a re-analysis of the deposited data

Results flagged for a closer look

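In 78 groups of 4 shPRC1 arrays (39 guidance genes in 2 cell lines), 8 had 1 array far from the other 3, judged by its gap to the nearest array as a share of the range. For 4 independent values of 1 normal distribution this happens in about 1 of 20 groups. Here the 4 arrays of a group are different conditions and the genes share arrays, so that rate cannot be set against the 8. In SK-N-MC the shUTR array with Dox was lowest for 3 genes, EFNA5 at 12.02 (the others 12.61 to 12.69), EPHB4 at 11.15 (11.44 to 11.48) and EPHA3 at 15.63 (15.87 to 15.90). SLIT2 was highest in SK-N-MC shUTR without Dox at 10.53 (10.09 to 10.15). In RDES shCDS with Dox, NRP1 was highest at 10.66 (9.04 to 9.31) and SEMA4B lowest at 7.55 (8.27 to 8.38). UNC5B was highest in RDES shCDS without Dox at 8.66 (7.73 to 7.82), and EFNB3 was highest in RDES shUTR with Dox at 7.67 (7.44 to 7.46).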

How the results depend on the processing

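The difference between the lines was refitted under 15 alternatives. With all 12 arrays as labelled, 0 guidance genes were higher in SK-N-MC and 0 in RDES, where the main comparison gave 16 and 10. Under the other alternatives, 17 of the 26 genes passed each time, and the 9 that did not each time were EPHB1, NRP1, PLXNA3, PLXNB2, ROBO1, SEMA3A, SEMA4B, SLIT2 and UNC5A. SEMA3A was below the filter when probe sets were averaged and gave no value there. The filter by either line was chosen after seeing the data. For PRC1 silencing no guidance gene passed under any of 14 alternatives. Across these, the silencing estimate ran from -0.34 to 0.61 for EPHA3 and from -1.77 to 0.40 for SEMA3A. It ran from -1.51 to 0.021 for SEMA4F and from -1.08 to 0.069 for SEMA5B. Leaving out an shCtrl line also left out the shPRC1 lines of its cell line, so those fits used 1 cell line. The lower end was from SK-N-MC alone and the upper end from RDES alone for each of these genes. The sign turned in RDES alone for SEMA3A, SEMA4F and SEMA5B. For EPHA3 it turned without RDES shCDS (-0.26) and in SK-N-MC alone (-0.34). For RDES against SK-N-MC silencing, 0 to 2 guidance genes passed when 1 derivative line was left out, among them SEMA3A without RDES shCDS (2.09, adjusted p 0.0378) and without RDES shUTR (2.14, adjusted p 0.0126). In those 2 fits RDES has 1 difference, which is assumed to vary like those of SK-N-MC. The estimate ran from -0.0195 (without RDES shCDS) to 1.48 for EPHA3, from -0.15 (without RDES shUTR) to 0.46 for SEMA4F, and from -0.0192 (without SK-N-MC shUTR) to 0.86 for SEMA5B. It was -0.026 for SEMA4F with arrays centred on the median. Why these values moved was not tested. The arrays of a derivative line without and with Dox were paired in both silencing comparisons.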
